A study of Mus musculus with 32 samples.

Results

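*Bdh1*, *Oxct1* and *Acat1* encode 3 mitochondrial enzymes of ketone body synthesis and use. The set was given by gene symbol, with no threshold on measured values, but with earlier results of these data known. All 3 genes were found among the 32544 gene symbols of the count table. All 3 passed the filter on low counts in every comparison. Their transcripts were measured by sequencing poly(A) RNA from the kidney cortex of 32 mice, with 1 library for each mouse. The mice were 25 weeks old and belonged to the strain C57BL/6J-Col4a3tm1Dec, a model of Alport syndrome, in which the collagen network of the glomerular basement membrane is defective. Alport mice were homozygous for the targeted allele (Col4a3-/-), and control mice were heterozygous (Col4a3+/-), so every mouse, the controls included, carried the allele. Males and females of each genotype received either vehicle or nicotinamide riboside (NR), a precursor of NAD, which gave 8 groups of 4 mice. Total counts per mouse ran from 16621944 to 27778797, with a median of 22071395. The lowest count of any of the 3 genes in any mouse was 653, for *Bdh1*. Levels are given in CPM, counts of a gene relative to the total of its library, after scaling by the trimmed mean of M values (TMM), with mice listed from replicate 1 to replicate 4 and group means given ± SD (n = 4).

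Ketone bodies are made from acetyl-CoA in mitochondria, mainly in the liver during fasting. ACAT1, a thiolase, joins acetyl-CoA units into acetoacetyl-CoA, further steps turn this into acetoacetate, and BDH1 reduces acetoacetate to beta-hydroxybutyrate with NADH. In tissues that burn ketones, the kidney among them, BDH1 runs in the other direction, OXCT1 moves CoA from succinyl-CoA onto acetoacetate, and ACAT1 splits the product into acetyl-CoA. BDH1 and ACAT1 therefore serve both directions, OXCT1 serves use alone, and the BDH1 step is coupled to the ratio of NAD to NADH.

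The labels were checked first. *Col4a3*, the gene that carries the targeted allele, was at 200.1, 197, 180.3 and 150.5 CPM in vehicle-treated control males and at 56.7, 66.7, 54.6 and 83.7 CPM in vehicle-treated Alport males. In vehicle-treated females it was at 161, 140.4, 139.7 and 163 CPM in controls and at 57.6, 79.3, 59.8 and 60.2 CPM in Alport mice. Every vehicle-treated Alport mouse was below every vehicle-treated control of its sex, and reads were still assigned to the gene in Alport mice. Under NR, *Col4a3* was at 59.0, 93.7, 74.9 and 160.3 CPM in control males and 67.7, 58.5, 55.9 and 62.4 CPM in Alport males. It was at 113, 105, 123 and 122 CPM in control females and 49.0, 51.2, 57.2 and 58.9 CPM in Alport females under NR. NR-treated controls of both sexes thus had lower means than vehicle-treated controls. In control females all 4 NR-treated mice were below all 4 vehicle-treated ones (log2 fold change NR minus vehicle -0.38, edgeR adjusted p = 0.0154). In control males the groups overlapped (-0.91, edgeR adjusted p = 0.0675). Replicates 1 and 3 of the NR-treated control males lay within the range of the vehicle-treated Alport males. With CPM by total counts, without TMM scaling, replicates 2 and 3 did so (79.8 and 67.3 CPM, range 64.5 to 87.8 CPM). Replicate 1 was then below that range, at 51.0 CPM. The kidney cortex label was checked with proximal tubule markers, of which *Slc34a1*, the main phosphate transporter of that segment, was the most abundant on average. *Lrp2*, *Slc34a1* and *Slc5a2* averaged 2658, 7455 and 499 CPM in vehicle-treated control males. Adipocyte markers summed to at most 4.92 CPM and adrenal cortex markers to at most 7.30 CPM in any mouse, and *Cyp11b2* had 0 counts in all 32 mice.

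Per kilobase of exon, *Oxct1* and *Acat1* stood well above *Bdh1* in every group. In vehicle-treated control males the mean levels were 343 ± 18.3 CPM per kilobase for *Oxct1*, 263 ± 9.33 for *Acat1* and 45.6 ± 3.86 for *Bdh1*. The corresponding means in vehicle-treated control females were 275 ± 35.9, 129 ± 7.81 and 32.0 ± 7.72 CPM per kilobase. *Oxct1*, which encodes the enzyme specific to ketone use, was therefore the most abundant of the 3 transcripts per length in the vehicle-treated controls of both sexes.

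*Bdh1* encodes the dehydrogenase that interconverts acetoacetate and beta-hydroxybutyrate. In control males it was at 175, 164, 199 and 172 CPM under vehicle and at 120.0, 186, 73.6 and 129 CPM under NR. In Alport males it was at 118, 107, 97.4 and 132 CPM under vehicle and at 64.2, 96.9, 30.0 and 137 CPM under NR. Every vehicle-treated Alport male was below every vehicle-treated control male, and the NR groups were spread widely, with replicate 3 the lowest in each. In control females *Bdh1* was at 147, 113, 151 and 87.4 CPM under vehicle and at 154, 123, 137 and 165 CPM under NR. In Alport females it was at 62.5, 123, 61.1 and 67.8 CPM under vehicle and at 86.5, 52.3, 46.4 and 24.3 CPM under NR. The vehicle-treated Alport females lay below the controls except for replicate 2, which was within the control range, and all NR-treated Alport females were below all vehicle-treated control females. By group mean the order ran from male control vehicle (177 ± 15.0 CPM) through female control NR, male control NR, female control vehicle, male Alport vehicle, male Alport NR and female Alport vehicle to female Alport NR (52.4 ± 25.8 CPM). Each group overlapped the next one in that order, and by total counts the order of the groups between the highest and the lowest was not the same, with male Alport vehicle (129 CPM) above female control vehicle (120.5 CPM).

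*Oxct1* encodes the CoA transferase that commits acetoacetate to oxidation. Control males had 1264, 1186, 1352 and 1279 CPM under vehicle and 725, 1081, 587 and 1045 CPM under NR. Alport males had 666, 612, 552 and 778 CPM under vehicle and 271, 587, 170.1 and 794 CPM under NR. The 4 vehicle-treated control males stood above all other males, and the NR-treated Alport males were split into a low pair (replicates 1 and 3) and a higher pair (replicates 2 and 4). Control females had 1186, 917, 1066 and 907 CPM under vehicle and 976, 941, 946 and 1006 CPM under NR. Alport females had 453, 729.9, 498 and 539.7 CPM under vehicle and 474, 389, 540.3 and 356 CPM under NR. Both Alport groups lay below both control groups in females, while the vehicle and NR groups overlapped within each genotype. By group mean the order was male control vehicle (1270.1 ± 67.7 CPM), female control vehicle, female control NR, male control NR, male Alport vehicle, female Alport vehicle, male Alport NR and female Alport NR (439.8 ± 83.3 CPM). Only the first step in that order, from male to female vehicle-treated controls, separated neighbours without overlap, by a margin of 1186.5 to 1186.3 CPM that was gone with CPM by total counts. By total counts male Alport vehicle also came just above male control NR and female Alport NR above male Alport NR.

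*Acat1* encodes the mitochondrial acetoacetyl-CoA thiolase, which also acts in isoleucine breakdown. It was at 944, 980.0, 1027 and 1003 CPM in vehicle-treated and 710.1, 985, 670.4 and 879 CPM in NR-treated control males. It was at 444, 415, 291 and 482 CPM in vehicle-treated and 227, 576, 247 and 664 CPM in NR-treated Alport males. Alport males under either treatment were below all control males, with the widest spread among NR-treated Alport males, whose replicates 1 and 3 were again the low pair. By total counts NR-treated Alport male replicate 4 lay above replicates 1 and 3 of the NR-treated control males, so that separation depended on scaling. Among control females *Acat1* was at 517, 502, 451 and 473 CPM under vehicle and 613, 557, 589 and 616 CPM under NR. Among Alport females it was at 195, 320.2, 205 and 258 CPM under vehicle and 334, 298, 366 and 412 CPM under NR. NR-treated control females were all above vehicle-treated control females, and Alport females of both treatments were below all control females. By group mean the order was male control vehicle (989 ± 35.1 CPM), male control NR, female control NR, female control vehicle, male Alport NR, male Alport vehicle, female Alport NR and female Alport vehicle (244 ± 57.5 CPM). In that order the steps from male control NR to female control NR, and from there to female control vehicle, were free of overlap, and the other neighbours overlapped. By total counts male Alport vehicle came before male Alport NR.

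**Figure D1:**
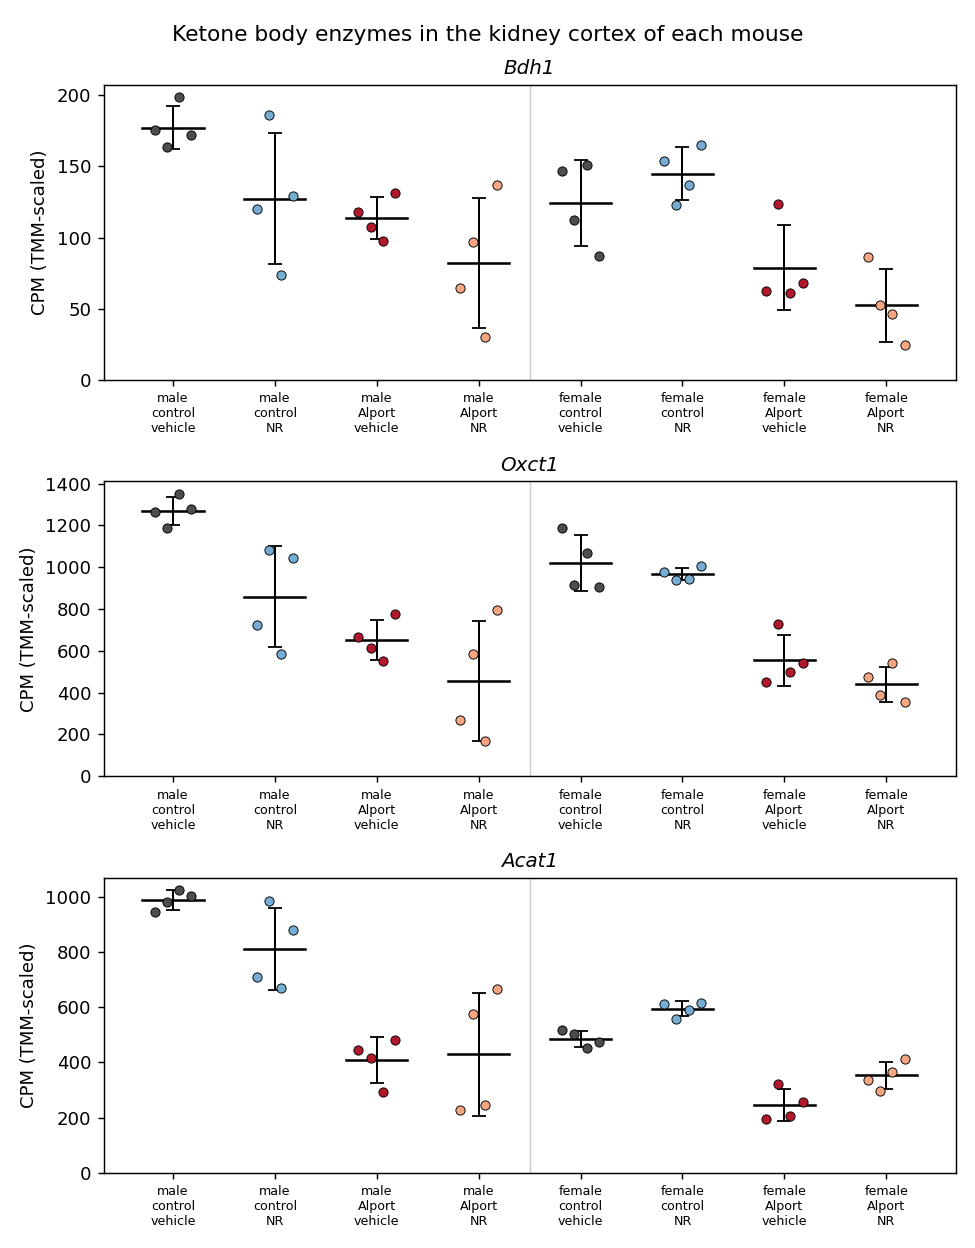
Levels of *Bdh1*, *Oxct1* and *Acat1* in CPM (TMM-scaled, vertical axis) in the 8 groups of mice (horizontal axis), with 1 point for each mouse, lines at group means and bars of 1 SD (n = 4). For all 3 genes the vehicle-treated Alport males lie below the vehicle-treated control males, and the NR-treated male groups are spread more widely than the vehicle-treated ones.

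The comparison of vehicle-treated control females with vehicle-treated control males asked whether the transcripts differed by sex without Alport disease or NR. All 3 transcripts were lower in females, and *Acat1* most, with every female below every male. The log2 fold change (female minus male, ± SE) was -1.003 ± 0.066, adjusted p = 8.53e-07 for *Acat1*. It was -0.49 ± 0.15, adjusted p = 0.0234 for *Bdh1* and -0.30 ± 0.091, adjusted p = 0.0278 for *Oxct1*. Adjusted p values are from the edgeR quasi-likelihood test over all genes tested, and a gene was called when its adjusted p was under 0.05. All 3 genes were called lower, against 15.8% of all 14990 genes tested, and all 3 were lower without overlap, against 17.8%. For *Oxct1* that separation was a margin of 1186.5 to 1186.3 CPM, and with CPM by total counts, without the TMM factor, *Oxct1* and *Bdh1* overlapped between the sexes and *Acat1* did not. By total counts the log2 ratio of group means was -0.84 for *Acat1*, -0.32 for *Bdh1* and -0.13 for *Oxct1*. The median log2 fold change was -0.49 over the 3 genes and 0.021 over all genes. The *Acat1* call was kept when any 1 mouse was left out. The *Bdh1* call was lost without male control vehicle replicate 3 or female control vehicle replicate 2, and the *Oxct1* call was lost in 5 of 8 such fits, without male control vehicle replicate 1, 3 or 4 or female control vehicle replicate 2 or 4. In 1 fit of all 32 mice, *Bdh1* (adjusted p = 0.301) and *Oxct1* (0.455) were not called. Cell type markers also differed between the sexes: 9 of 22 proximal tubule markers were called lower and 3 higher in females, with summed levels of 24285 to 28855 CPM in females and 31821 to 35448 CPM in males. Called higher in females were 6 of 8 podocyte, 6 of 9 fibroblast, 3 of 6 injured tubule and 4 of 8 endothelial markers. Of 16 distal tubule and collecting duct markers 6 were higher and 1 lower, and 0 of 10 immune markers were called. Over all genes tested, 2386 of 14990 were called higher.

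The comparison of vehicle-treated Alport with vehicle-treated control mice asked how the transcripts differed with kidney disease. In males, all 3 transcripts were lower in Alport mice, *Acat1* by the most and *Bdh1* by the least, and each of the 4 Alport males was below each of the 4 controls. The log2 fold change (Alport minus control) was -0.56 ± 0.10, adjusted p = 0.000592 for *Bdh1*. It was -0.88 ± 0.12, adjusted p = 6.61e-05 for *Oxct1* and -1.20 ± 0.14, adjusted p = 2.6e-05 for *Acat1*. TMM factors for tests came from the 8 mice of a fit and those for printed levels from all 32, so ratios of printed means are not the same as the fold changes. All 3 were called lower, against 24.2% of 15286 genes tested, and all 3 were lower without overlap, against 27.9%. The size of these differences depended on scaling, since the factors over 32 mice were higher in Alport than in control males (log2 ratio 0.42). By total counts the log2 ratio of group means was -0.23 for *Bdh1*, -0.55 for *Oxct1* and -0.87 for *Acat1*, all 3 still without overlap. With 1 fit of all 32 mice, *Bdh1* was not called (-0.65, adjusted p = 0.109), and over the 6 other settings its adjusted p ranged from 8.1e-07 to 0.109.

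In females, *Oxct1* and *Acat1* were lower in Alport mice without overlap, and *Bdh1* overlapped between genotypes. The log2 fold change was -0.84 ± 0.15, adjusted p = 0.00144 for *Oxct1*. For *Acat1* it was -0.95 ± 0.15, adjusted p = 0.000515, and for *Bdh1* it was -0.62 ± 0.24, adjusted p = 0.0579, which missed the threshold. Thus 2 of 3 genes were called lower, against 21.8% of 15709 genes tested, and the same count was lower without overlap, against 23.6%. The *Bdh1* value turned on single mice: without Alport replicate 2, the mouse within the control range, it was -0.94, adjusted p = 0.000992, and without control replicate 4, the lowest control, it was -0.76, adjusted p = 0.0316. It also passed with limma-voom (0.0445) and without the low-count filter (0.0455). By total counts the log2 ratios were -0.37 for *Bdh1*, -0.58 for *Oxct1* and -0.70 for *Acat1*, the last 2 still without overlap. The sex by genotype interaction, a test of whether the Alport difference of females differed from that of males, gave log2 values of -0.085 ± 0.29, adjusted p = 0.963 for *Bdh1*, 0.017 ± 0.20, adjusted p = 0.993 for *Oxct1* and 0.22 ± 0.22, adjusted p = 0.784 for *Acat1*. None of the 3 was called in it by edgeR, against 0.532% of 16152 genes tested. At an unadjusted p under 0.05 there were 1940 genes and none of the members.

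Other genes of ketone use were compared between the same Alport and control mice. Of the 6 genes on that list (*Bdh1*, *Oxct1*, *Acat1*, *Aacs*, *Oxct2a* and *Oxct2b*, the 3 members included), 4 of 5 tested fell in males and 3 of 4 in females. The median log2 fold change of the list was -0.88 in males and -0.89 in females, beside -0.0013 and -0.00083 over all genes tested. *Aacs*, the cytosolic ligase that sends acetoacetate to lipid synthesis, was at 376, 416, 288 and 425 CPM in vehicle-treated control males and 194, 191, 129 and 126 CPM in vehicle-treated Alport males. No Alport male reached the control range, and *Aacs* fell in males (-1.16 ± 0.17, adjusted p = 0.000148) and also among females (-0.98 ± 0.26, adjusted p = 0.0108). *Oxct2a*, a testis form of the transferase, averaged 0.533 CPM in vehicle-treated control males and at most that in other groups except male Alport vehicle (0.549 CPM), and the filter removed *Oxct2b* from every comparison. *Oxct2a* and *Oxct2b* are close copies, so the assignment of reads between them is uncertain.

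Genes of ketone and monocarboxylate transport moved in both directions in Alport mice. Of 8 tested, 3 rose and 4 fell in males, and 2 rose and 4 fell in females, with medians of 0.00012 and -0.18. Over all genes, 4093 rose and 3697 fell of 15286 tested in males, and 3768 rose and 3431 fell of 15709 in females. The sodium-coupled carriers *Slc5a8* (-0.998 in males and -0.70 in females) and *Slc5a12* (-1.27 and -1.11) fell, as did the proton-coupled carrier *Slc16a7* (-0.71 and -0.91) and *Bsg* (-0.30 and -0.28), a chaperone of such carriers. *Slc5a12* is also on the list of proximal tubule markers. Of the other proton-coupled carriers, *Slc16a1* (0.32 and 0.46) and *Slc16a3* (1.76 and 1.54) rose in both sexes. *Emb* rose in males (0.30 ± 0.073, adjusted p = 0.00506), while its female value was 0.10 ± 0.076, adjusted p = 0.309. *Slc16a6* passed in neither sex (0.34 ± 0.17, adjusted p = 0.121 in males and -0.074 ± 0.17, adjusted p = 0.745 in females). The *Slc16a1* call in males was lost in 5 of 8 fits that left out a mouse, and the *Bsg* call in males in 2 of 8.

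In 4 of 5 lists of neighbouring pathways most genes tested fell in Alport mice of both sexes. Over all genes tested, 24.2% were called lower in males and 21.8% in females. The list nearest to those shares was that of the short-chain dehydrogenase relatives. Among regulators and sensors of ketone metabolism, 8 of 10 tested fell and 1 rose in males (median -0.68), and 8 of 8 fell in females (-0.68). The smallest adjusted p values in males belonged to *Sirt3* (-0.92, 1.75e-05), *Ppara* (-0.94, 5.32e-05), *Cpt1a* (-0.76, 8.16e-05) and *Ppargc1a* (-0.66, 8.48e-05), given with log2 fold change and adjusted p. Among thiolases and their relatives, 7 of 8 fell and 1 rose in each sex (medians -0.60 and -0.69), led in males by *Hadhb* (-0.73, 3.66e-05), *Scp2* (-0.76, 0.000142) and *Acaa1a* (-0.47, 0.000517). In branched-chain amino acid breakdown, which shares *Acat1*, 22 of 23 tested fell and 1 rose in each sex (medians -0.84 and -0.69), led in males by *Bcat2* (-1.06, 5.15e-07), *Mccc1* (-1.11, 4.59e-06) and *Auh* (-0.84, 5.28e-06). All 7 genes of succinyl-CoA supply and acetyl-CoA entry, the steps that supply succinyl-CoA and bring acetyl-CoA into the citric acid cycle, fell in both sexes (medians -0.65 and -0.63), led in males by *Sucla2* (-0.88, 2.3e-05) and *Dld* (-0.78, 7.07e-05). Among the short-chain dehydrogenase relatives of *Bdh1*, 3 of 7 tested fell in males and 3 of 9 in females (medians -0.62 and -0.64), led in males by *Rdh16* (-1.09, 3.57e-06, with -0.90, 0.000326 in females), with *Bdh2* among them (-0.80 and -0.64).

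Markers of cell types moved with the same comparison. Of 22 proximal tubule markers, 20 fell and none rose in males (median log2 fold change -1.07), and 19 fell and 2 rose in females (-0.89). Their summed level was 32548, 35448, 33465 and 31821 CPM in vehicle-treated control males and 15723, 15291, 11504 and 17681 CPM in vehicle-treated Alport males. In vehicle-treated females the sum was 28855, 26394, 24285 and 25487 CPM in controls and 10270.1, 16627, 12314 and 13661 CPM in Alport mice, again without overlap. All 6 markers of injured tubule, with *Spp1* the most abundant, rose in both sexes, and their sum was 523 to 663 CPM in control and 6107 to 7439 CPM in Alport males and 1405 to 1957 CPM in control and 7362 to 11729 CPM in Alport females. All 9 fibroblast markers rose in both sexes, with *Col1a2* the most abundant on average over the 32 mice, and sums of 121 to 139.5 and 966 to 1566 CPM in control and Alport males and 154 to 244 and 783 to 1274 CPM in females. Of 13 immune markers tested, 13 rose in males and 11 in females, with *Lyz2* the most abundant over the 32 mice and *Cd3e* and *Cd3g* at 0 in some mice, and sums were 65.4 to 86.1 and 375 to 536 CPM in control and Alport males and 75.8 to 145 and 308 to 543 CPM in females. Of 8 podocyte markers 6 rose in each sex (top gene *Podxl*, sums 497 to 569 and 809.7 to 1207 CPM in control and Alport males). Of 8 endothelial markers 7 rose in males and 5 in females (top gene *Plvap*, 396 to 447 and 541 to 676 CPM in males), and of 16 distal tubule and collecting duct markers 12 fell in males and 11 in females (top gene *Umod*, 5956 to 7022 and 4180.2 to 5454 CPM in males). In control and Alport females the podocyte sums were 672 to 708 and 886 to 1024 CPM, without overlap. The endothelial sums were 454 to 586 and 558 to 637 CPM in the same females, with overlap. The distal tubule and collecting duct sums, at 7423 to 8604 and 5277 to 8636 CPM, also overlapped in females. In bulk tissue, fewer cells of a type and less RNA per cell cannot be told apart, and the part of these shifts in the lower levels of the ketone enzyme transcripts was not tested.

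The levels of the members were positively correlated with the proximal tubule markers. Across the 32 mice, Pearson's r with the mean of the 22 markers on the log2 scale was 0.954 (0.936) for *Acat1*, 0.804 (0.921) for *Oxct1* and 0.754 (0.637) for *Bdh1*, with the r of deviations from group means in parentheses. Among NR-treated Alport males the marker sums were 8951, 22964, 8241 and 23383 CPM, with replicates 1 and 3 low, the same mice that were low in *Oxct1* and *Acat1*. These correlations are descriptions over mice that share the 8 groups, and r with the markers was not compared with that of other genes. The r of deviations pools groups of unequal spread, with the marker sums most variable in NR-treated Alport males (SD 8423 CPM).

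NR in control mice was compared with vehicle to see what the compound did without Alport disease. In control males all 3 means were lower under NR, and *Oxct1* was the gene whose groups did not overlap, with 4 NR-treated males below 4 vehicle-treated males, as in 868 of 14696 genes tested, with 1083 higher without overlap. Replicates 1 and 3, the NR-treated control males whose *Col4a3* lay within the range of vehicle-treated Alport males, had the lowest levels of their group in all 3 genes. By total counts *Col4a3* was within that range in replicates 2 and 3, and replicate 2 had the highest levels of its group in all 3 genes. The labels were used as deposited. The log2 fold change (NR minus vehicle) was -0.56 ± 0.17, adjusted p = 0.0933 for *Oxct1*. It was -0.47 ± 0.22, adjusted p = 0.227 for *Bdh1* and -0.28 ± 0.12, adjusted p = 0.207 for *Acat1*. By edgeR 0 of 3 genes were called, against 4.53% of 14696 genes tested, while 2 of 3 members and 3399 of all genes tested had an unadjusted p under 0.05. DESeq2 called *Oxct1* (-0.56, adjusted p = 0.0214) within a range of 0.0214 to 0.238 over the 6 settings, and limma-voom called none. The *Oxct1* difference was called without NR-treated replicate 2 (-0.69, adjusted p = 0.0463) or 4 (-0.65, adjusted p = 0.0446), and that of *Bdh1* without NR-treated replicate 2 (-0.72, adjusted p = 0.0438).

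In control females NR went with a higher *Acat1* level, and *Bdh1* and *Oxct1* overlapped between treatments. *Acat1* rose by 0.29 ± 0.067, adjusted p = 0.0288, with all 4 NR-treated females above all 4 vehicle-treated ones, as in 1203 of 14951 genes tested, with 945 lower without overlap. The values were 0.22 ± 0.15, adjusted p = 0.419 for *Bdh1* and -0.078 ± 0.088, adjusted p = 0.644 for *Oxct1*. Thus 1 of 3 genes was called, against 6.18% of 14951 genes tested. The *Acat1* call was lost in 6 of the 8 fits that left out a mouse, kept only without female control vehicle replicate 1 or female control NR replicate 2, and it was lost in 1 fit of all 32 mice (0.665). The NR by sex interaction in controls, which tested whether females and males differed in their response, gave 0.58 ± 0.14, adjusted p = 0.0658 for *Acat1*, 0.70 ± 0.29, adjusted p = 0.239 for *Bdh1* and 0.49 ± 0.21, adjusted p = 0.245 for *Oxct1*. None of the 3 was called by edgeR or by limma-voom, against 0.683% of 15379 genes by edgeR, while all 3 members and 2458 of all genes tested had an unadjusted p under 0.05. DESeq2 called *Acat1* (0.57, adjusted p = 0.00537), as did edgeR without male control NR replicate 2 (0.00952) or 4 (0.0299), and over the 6 settings its adjusted p ranged from 0.00537 to 0.595.

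The NR difference in Alport mice was the question of treatment in disease. In Alport males the groups overlapped for all 3 genes, since the NR-treated mice went both below and above the vehicle-treated range. By total counts the groups also overlapped, but only *Acat1* had NR-treated mice above that range. The log2 ratios by total counts were -0.63 for *Bdh1* and -0.69 for *Oxct1*. The log2 fold change was -0.48 ± 0.37, adjusted p = 0.939 for *Bdh1*. It was -0.53 ± 0.42, adjusted p = 0.939 for *Oxct1* and 0.065 ± 0.36, adjusted p = 0.991 for *Acat1*. By edgeR 0 genes of 15500 tested were called (0%), and so 0 of the 3 members, with 785 genes and none of the members at an unadjusted p under 0.05. DESeq2 called 62 genes and limma-voom 0. The direction of *Acat1* was not fixed, since leaving out 1 mouse gave values from -0.23 to 0.27, reversed without male Alport vehicle replicate 3 or male Alport NR replicate 2 or 4, and the log2 ratio by total counts was -0.091.

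In Alport females *Bdh1* and *Oxct1* had lower means under NR and *Acat1* a higher one, all with overlap. The values were 0.54 ± 0.18, adjusted p = 0.196 for *Acat1*, -0.59 ± 0.35, adjusted p = 0.417 for *Bdh1* and -0.33 ± 0.18, adjusted p = 0.386 for *Oxct1*. By edgeR 0 of 3 were called, against 0.477% of 15712 genes tested, with 1 member and 2627 of all genes tested at an unadjusted p under 0.05. DESeq2 and limma-voom called none of the 3 either. For *Acat1*, 3 of 4 NR-treated Alport females were above all vehicle-treated Alport females.

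Whether NR acted differently in Alport and control mice was tested by the NR by genotype interaction. In males it gave -0.030 ± 0.47, adjusted p = 0.99 for *Bdh1*, 0.014 ± 0.49, adjusted p = 0.995 for *Oxct1* and 0.32 ± 0.41, adjusted p = 0.853 for *Acat1*. By edgeR 0 of 15800 genes were called (0%), none of the members among them, with 1398 genes and no member at an unadjusted p under 0.05, 20 genes called by DESeq2 and 0 by limma-voom. In females it gave -0.82 ± 0.42, adjusted p = 0.553 for *Bdh1*, -0.27 ± 0.21, adjusted p = 0.711 for *Oxct1* and 0.23 ± 0.19, adjusted p = 0.727 for *Acat1*. Here too edgeR called 0 of 16064 genes (0%) and no member, with 1521 genes and no member at an unadjusted p under 0.05, 30 genes called by DESeq2 and 0 by limma-voom. The NR by sex interaction in Alport mice gave -0.13 ± 0.56, adjusted p = 1 for *Bdh1*, 0.17 ± 0.49, adjusted p = 1 for *Oxct1* and 0.45 ± 0.43, adjusted p = 1 for *Acat1*. It called 0 of 16189 genes (0%) and no member by edgeR, with 363 genes and no member at an unadjusted p under 0.05, 1 gene called by DESeq2 and 0 by limma-voom. A miss of the threshold in these tests does not show that the responses were alike.

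NR-treated Alport mice were also set against vehicle-treated controls, the same control mice as in the Alport comparison under vehicle. All 3 transcripts were below the control range in both sexes. In males the log2 fold change was -1.06 ± 0.37, adjusted p = 0.0685 for *Bdh1*, -1.42 ± 0.42, adjusted p = 0.041 for *Oxct1* and -1.15 ± 0.35, adjusted p = 0.0435 for *Acat1*. Here 2 of 3 genes were called lower, against 6.81% of 15077 genes tested, and all 3 were lower without overlap, against 17.5%. Under vehicle the Alport males had stood at -0.56, -0.88 and -1.20 against the same controls, in a separate fit. NR compared directly with vehicle in Alport males called none of the 3 genes by edgeR. For NR-treated Alport minus vehicle-treated control females the values were -1.24 ± 0.32, adjusted p = 0.0197 for *Bdh1*, -1.20 ± 0.15, adjusted p = 0.000685 for *Oxct1* and -0.45 ± 0.11, adjusted p = 0.0154 for *Acat1*. All 3 were called lower, against 11.6% of 15381 genes tested, and all 3 were lower without overlap, against 14.7%, though *Bdh1* overlapped by total counts. The vehicle values of females had been -0.62, -0.84 and -0.95 in a separate fit, and NR compared directly with vehicle in Alport females called none of the 3 genes by edgeR. Cell type markers also moved between NR-treated Alport and vehicle-treated control mice: 8 of 22 proximal tubule markers fell in males and 14 in females, where 1 rose. All 6 injured tubule markers and 7 of 9 fibroblast markers rose in each sex. Leaving out 1 male ended the call of *Oxct1* in 5 of 8 fits (all but those without male Alport NR replicate 2, 3 or 4) and that of *Acat1* in 6 of 8 (all but those without male Alport NR replicate 2 or 4), and *Bdh1* was called without Alport NR replicate 3 (-0.78, adjusted p = 0.047) or 4 (-1.45, adjusted p = 0.018), by DESeq2 (0.0189) and in 1 fit of all 32 mice (0.00848). In females the *Bdh1* call was lost without female control vehicle replicate 1 or female Alport NR replicate 2 and the *Acat1* call without female Alport NR replicate 1, and *Acat1* was not called in 1 fit of all 32 mice (0.155).

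**Figure D2:**
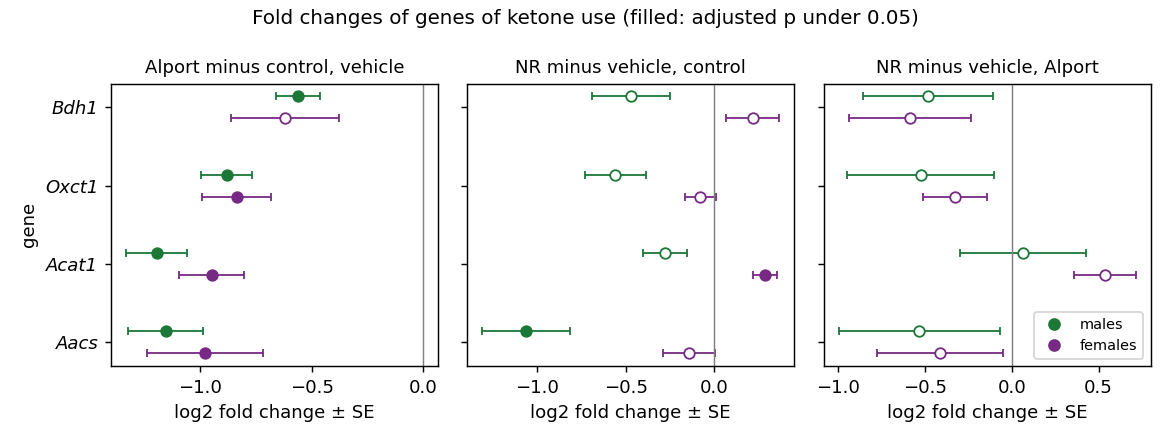
Log2 fold changes with bars of 1 SE (horizontal axis) of 4 genes of ketone use (vertical axis) in 3 comparisons and both sexes, with filled points for an adjusted p under 0.05. In the Alport comparison every point lies below 0, and no point is filled for NR in Alport mice.

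Other genes of ketone use and transport were also compared under NR. Over all genes tested, edgeR called 4.53% in control males, 6.18% in control females, 0% in Alport males and 0.477% in Alport females. *Aacs* fell in control males (-1.06 ± 0.25, adjusted p = 0.0405), from 376, 416, 288 and 425 to 96.3, 201, 163 and 259 CPM without overlap, and the call was lost in 4 of 8 fits that left out a mouse, without male control vehicle replicate 1, 2 or 4 or male control NR replicate 3. Its values in the other sex and genotype were -0.14 ± 0.15, adjusted p = 0.613 in control females, -0.53 ± 0.46, adjusted p = 0.939 in Alport males and -0.41 ± 0.36, adjusted p = 0.58 in Alport females. Of the ketone use list, with the members included, 1 of 4 tested fell in control males (*Aacs*) and 1 of 4 rose in control females (the member *Acat1*). On the same list 0 of 5 and 0 of 4 were called in Alport males and females. Its medians were -0.51 in control males, 0.070 in control females, -0.48 in Alport males and -0.37 in Alport females, and those of all genes tested were -0.00022, -0.0091, 0.014 and 0.00049. Of the transport genes *Slc16a1* rose in control males (0.55 ± 0.13, adjusted p = 0.0461), a call lost in 7 of 8 fits that left out a mouse, and *Slc5a8* (0.27 ± 0.070, adjusted p = 0.0418) and *Bsg* (0.22 ± 0.059, adjusted p = 0.0442) rose in control females, calls lost in all 8. In Alport mice 0 of 8 transport genes were called by edgeR in either sex.

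Among the neighbouring lists under NR, the thiolase relatives had the most calls for their size in control mice and Alport females. In Alport males none of these lists held a call by edgeR, and differences between lists were not tested. *Acaa1b* and *Acaa2*, thiolases of peroxisomal and mitochondrial fatty acid oxidation, rose in control males (1.42 ± 0.15, adjusted p = 0.00173 and 0.98 ± 0.15, adjusted p = 0.0102). They also rose in control females (0.95 ± 0.21, adjusted p = 0.0246 and 0.67 ± 0.082, adjusted p = 0.00158) and in Alport females (1.66 ± 0.24, adjusted p = 0.0169 and 1.13 ± 0.19, adjusted p = 0.0318). In Alport males the values were 1.23 ± 0.28, adjusted p = 0.613 for *Acaa1b*, without overlap, and 0.98 ± 0.31, adjusted p = 0.866 for *Acaa2*, with overlap, and neither was called. The thiolase list gave 2 higher and 0 lower of 8 tested, median 0.15 in control males and 4 higher and 0 lower of 8 tested, median 0.21 in control females. In Alport mice it gave 0 higher and 0 lower of 8 tested, median 0.31 in males and 2 higher and 0 lower of 8 tested, median 0.40 in females. The regulator list gave 0 higher and 1 lower of 9 tested, median -0.094 in control males and 0 higher and 2 lower of 8 tested, median -0.075 in control females, with *Mlxipl* lower in both (-0.73 and -0.66) and *Ppara* lower in females (-0.45). Branched-chain amino acid breakdown gave 0 higher and 0 lower of 23 tested, median -0.17 in control males and 4 higher and 1 lower of 23 tested, median 0.10 in control females. Succinyl-CoA supply gave 0 higher and 0 lower of 7 tested, median -0.056 and 1 higher and 0 lower of 7 tested, median 0.11 in the same groups, and the dehydrogenase relatives gave 0 higher and 0 lower of 7 tested, median -0.082 and 1 higher and 0 lower of 8 tested, median -0.079. In Alport mice these 4 lists held 0 calls by edgeR in males and 1 in females, *Bcat1* (-3.45 ± 0.49, adjusted p = 0.0156).

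Cell type markers shifted under NR in control males as well. Endothelial markers gave 7 higher and 0 lower of 8 tested, median 0.60, injured tubule markers 4 higher and 0 lower of 6 tested, median 1.72, fibroblast markers 4 higher and 0 lower of 9 tested, median 0.74 and proximal tubule markers 0 higher and 1 lower of 22 tested, median -0.19. The proximal tubule sum was 24580.0, 30119, 26160.0 and 30898 CPM in NR-treated control males, all below the vehicle-treated control males and above the vehicle-treated Alport males. The injured tubule sum was 1802, 1251, 1580.4 and 723 CPM beside 602, 531, 663 and 523 CPM under vehicle, and it was 6107 to 7439 CPM in vehicle-treated Alport males. In control females the proximal tubule sum was 24285 to 28855 CPM under vehicle and 24621 to 28989 CPM under NR. In Alport males the ranges were 11504 to 17681 and 8241 to 23383 CPM, and in Alport females 10270.1 to 16627 and 13622 to 17634 CPM. The endothelial sum in Alport females was 558 to 637 CPM under vehicle and 698 to 829 CPM under NR, without overlap. Their injured tubule sum was 7362 to 11729 and 2866 to 8128 CPM, with overlap, and 0 markers of these lists were called. In control females 3 of 16 distal tubule and collecting duct markers were called higher and 1 lower under NR. The part of these shifts in the NR results was not tested.

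The balance between the transcripts within a mouse was described by ratios of CPM per kilobase. These were chosen after the values had been seen and are given with no test and no comparison with other pairs of genes. The ratio of *Oxct1* to *Acat1* in control males was 1.36, 1.23, 1.34 and 1.29 under vehicle and 1.04, 1.11, 0.888 and 1.21 under NR. In Alport males it was 1.52, 1.50, 1.93 and 1.64 under vehicle and 1.21, 1.03, 0.701 and 1.21 under NR. Every NR-treated male was below every vehicle-treated male of its genotype. In control females the ratio was 2.33, 1.86, 2.40 and 1.95 under vehicle and 1.62, 1.72, 1.63 and 1.66 under NR. In Alport females it was 2.36, 2.31, 2.46 and 2.13 under vehicle and 1.44, 1.33, 1.50 and 0.877 under NR. Again the treatments did not overlap in either genotype, so *Oxct1* RNA was lower relative to *Acat1* RNA in NR-treated mice of all 4 combinations of sex and genotype. Vehicle-treated females had higher ratios than vehicle-treated males of the same genotype, also without overlap. The ratio of *Bdh1* to *Acat1* was 0.161 to 0.187 in vehicle-treated control males and 0.251 to 0.324 in vehicle-treated Alport males, which did not overlap. In vehicle-treated females it was 0.179 to 0.323 in controls and 0.254 to 0.373 in Alport mice, with overlap. Between treatments the same ratio overlapped in 3 of the 4 combinations of sex and genotype and was lower under NR without overlap in Alport females. The ratio of *Oxct1* to *Bdh1* overlapped between treatments in all 4.

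**Figure D3:**
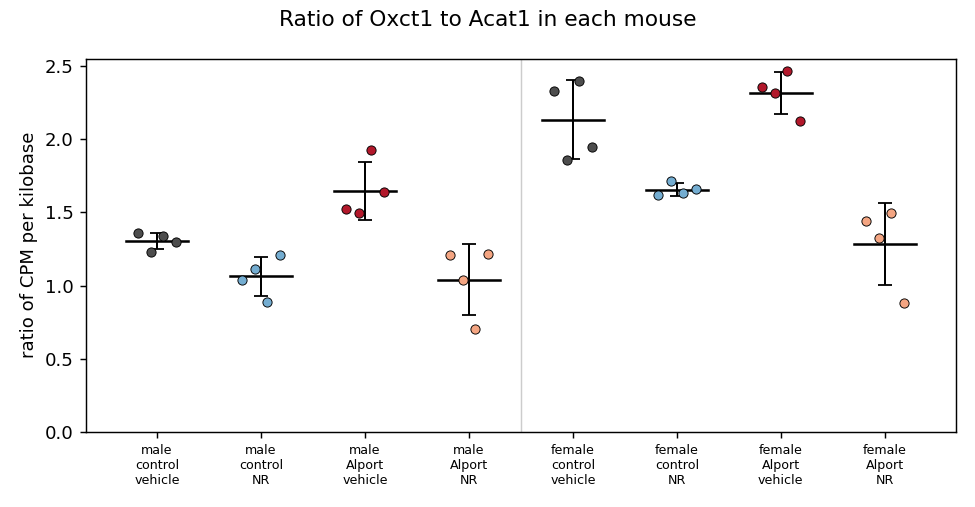
Ratio of *Oxct1* to *Acat1* in CPM per kilobase (vertical axis), with 1 point for each of the 32 mice in 8 groups (horizontal axis), lines at group means and bars of 1 SD (n = 4). The ratio is lower in every NR-treated group than in its vehicle-treated group, without overlap.

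Among themselves the members were positively correlated over the 32 mice, but not within every group. Among NR-treated Alport females, replicate 4 had the highest *Acat1* (412 CPM) and the lowest *Oxct1* (356 CPM) and *Bdh1* (24.3 CPM). Pearson's r of log2 CPM between *Bdh1* and *Oxct1* was 0.887 across the 32 mice and 0.840 for deviations from the group means. For *Oxct1* and *Acat1* it was 0.786 across the 32 mice and 0.864 for deviations from the group means, and for *Bdh1* and *Acat1* it was 0.707 across the 32 mice and 0.594 for deviations from the group means. Of 16469 genes, the 5 with the highest r with *Bdh1* were *Ace* (0.950, 0.905), *Mep1a* (0.935, 0.904), *Susd2* (0.917, 0.845), *Ghr* (0.913, 0.857) and *Mep1b* (0.912, 0.885), each with r across the 32 mice and r of deviations from the group means. *Ace*, *Mep1a* and *Mep1b* encode peptidases of the tubule brush border. For *Oxct1* the 5 were *Aspdh* (0.958, 0.896), *Susd2* (0.953, 0.916), *Lrpap1* (0.953, 0.925), *Cyp2j11* (0.953, 0.964) and *Eci3* (0.951, 0.926). For *Acat1* they were *Man1a* (0.978, 0.936), *Dnajc12* (0.977, 0.945), *Zfp706* (0.975, 0.940), *Fbxo8* (0.974, 0.882) and *Acads* (0.970, 0.951). *Susd2* was the gene named for both *Bdh1* and *Oxct1*.

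On mouse build GRCm38 (GENCODE vM21), *Bdh1* lies at chr16:31422280-31458901 on the plus strand, *Oxct1* at chr15:4026383-4155344 on the plus strand and *Acat1* at chr9:53580522-53610382 on the minus strand. The combined exon lengths used for levels per kilobase were 3888, 3701 and 3758 bases. The opposite-strand transcripts *BC037032* and *Gm15632* overlap *Oxct1*, and *Gm15743* overlaps *Bdh1*. None of these is in the count table, and because the strand of the libraries is not given, their reads cannot be told from those of the members. RefSeq promoters of 300 bases (GRCm38.p6, 250 bases before to 50 after the start) were found for 2 of the 3 members, 1 for *Oxct1* and 2 for *Bdh1*, and none was found for *Acat1*. The *Oxct1* promoter is printed to show the letters that were searched, and of the *Bdh1* promoters the second is printed because it holds a match. Both strands were searched for the nuclear receptor half-site AGGTCA, for direct repeat 1, which is 2 such half-sites spaced by 1 base and the form bound by PPAR and RXR, and for the GC box GGGCGG. The half-site and direct repeat 1 were in none of the 3 sequences, beside 16.3% and 0.0396% of 32851 promoters of the same length. A GC box, held by 35.7% of those promoters, was in the second *Bdh1* promoter on the minus strand, at position 266 of 300, and is set in capitals. A match or its lack describes these letters in this window alone.
*Oxct1* promoter, chr15:4026178-4026477, plus strand: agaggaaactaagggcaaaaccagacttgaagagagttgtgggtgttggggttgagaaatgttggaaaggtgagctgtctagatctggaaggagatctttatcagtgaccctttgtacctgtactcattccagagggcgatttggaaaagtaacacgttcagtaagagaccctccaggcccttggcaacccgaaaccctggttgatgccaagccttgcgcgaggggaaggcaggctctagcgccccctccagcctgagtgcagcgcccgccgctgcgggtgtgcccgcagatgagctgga
*Bdh1* promoter 2, chr16:31428503-31428802, plus strand: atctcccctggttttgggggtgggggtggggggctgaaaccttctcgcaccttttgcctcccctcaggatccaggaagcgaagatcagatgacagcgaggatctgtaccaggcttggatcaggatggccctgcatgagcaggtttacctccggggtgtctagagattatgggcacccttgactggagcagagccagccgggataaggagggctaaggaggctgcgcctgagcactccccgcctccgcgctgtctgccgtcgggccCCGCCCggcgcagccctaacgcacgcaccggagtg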

How the data were processed

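The 32 libraries (1 for each mouse) were poly(A) RNA of kidney cortex, prepared with NEBNext Ultra II. The authors deposited a table of raw counts per gene symbol and a table of log10(CPM + 1) values made from them. The deposited log10 table served only as a check. For read processing the authors used BioJupies. The submitters' processing notes name mm10, and the aligner, annotation and strand are not given in the sources used here. Members and gene lists were chosen with earlier results of these data known. Tests were made with edgeR 4.0.16 (R 4.3.3) on counts: low counts removed by filterByExpr (count minimum 10), then TMM scaling, quasi-likelihood F test and Benjamini-Hochberg adjustment over all genes tested, with 8 mice in a pairwise fit and 16 in an interaction. SE is the absolute log2 fold change divided by the square root of F. Interactions are female minus male or Alport minus control differences. Log2 CPM for correlations used a prior count of 2. Alternatives were DESeq2 1.42.0, limma-voom (limma 3.58.1), 1 fit of all 32 mice, RLE scaling, no low-count filter, a replicate block, leaving out each mouse, and CPM by total counts. The log2 ratio of mean TMM factors, Alport over control under vehicle, was 0.42 in males and 0.30 in females. A planned list of ketone synthesis genes is not reported here. Named genes were the members, every ketone use and transport gene with at least 10 counts in at least 4 mice, up to 4 genes of each other list with the smallest adjusted p, the 5 genes with the highest r with each member, and cell type markers. Python 3.11.15, pandas 2.3.3 and matplotlib 3.10.9 were used for gene models, promoters and figures.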

Additional observations from a re-analysis of the deposited data

Results flagged for a closer look

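In 32 groups of 4 mice (the 3 members and *Col4a3* in 8 groups each), the gap of the highest or lowest mouse to its nearest neighbour was set against the whole range of the group. In 2 of 32 the share passed the limit that chance alone passes in about 1 in 20 groups of 4. Both were female Alport vehicle replicate 2, which was the highest of its group in *Bdh1*, with a share of 0.892, and in *Col4a3*, with a share of 0.881. It had 123 CPM of *Bdh1* beside 61.1 to 67.8 CPM in the other 3 mice, and 79.3 CPM of *Col4a3* beside 57.6 to 60.2 CPM.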

How the results depend on the processing

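Of the 42 log2 fold changes of members, 38 kept their direction and side of the threshold with DESeq2, 39 with limma-voom, 35 in 1 fit of all 32 mice, 41 with RLE scaling, 41 without the low-count filter and 37 with a replicate block. For each change given here the cause was not tested. Mean CPM by total counts moved by over 1 SD in 6 of 24 group means of members: *Bdh1* in male control vehicle (151 CPM), *Bdh1* in male Alport vehicle (129 CPM), *Oxct1* in male control vehicle (1080.4 CPM), *Oxct1* in female control NR (889 CPM), *Acat1* in male control vehicle (841 CPM) and *Acat1* in female control NR (546 CPM). With DESeq2 the number of genes called moved by over 1.5 times to 62 for NR in Alport males, 1654 for NR in control males, 728 for NR in Alport females, 1493 for NR in control females, 260 for sex by genotype, 20 for NR by genotype in males, 30 for NR by genotype in females, 1 for NR by sex in Alport mice and 504 for NR by sex in controls. With DESeq2 a call was made for *Oxct1* for NR in control males (-0.56, adjusted p = 0.0214), *Bdh1* for NR-treated Alport minus vehicle-treated control in males (-1.08, adjusted p = 0.0189) and *Acat1* for NR by sex in controls (0.57, adjusted p = 0.00537). With DESeq2 the sign reversed for *Oxct1* for NR by genotype in males (-0.017, adjusted p = 0.995). With limma-voom the number of genes called moved by over 1.5 times to 46 for sex by genotype. With limma-voom a call was made for *Bdh1* for Alport minus control in females (-0.65, adjusted p = 0.0445). With limma-voom the sign reversed for *Acat1* for NR in Alport males (-0.037, adjusted p = 0.996) and *Oxct1* for NR by genotype in males (-0.14, adjusted p = 0.96). In 1 fit of all 32 mice the number of genes called moved by over 1.5 times to 88 for NR in Alport males, 6819 for NR-treated Alport minus vehicle-treated control in males, 253 for NR in Alport females, 18 for NR in control females, 2799 for female minus male, 5 for sex by genotype, 1 for NR by genotype in males and 7 for NR by sex in controls. In 1 fit of all 32 mice the call was lost for *Bdh1* for Alport minus control in males (-0.65, adjusted p = 0.109), *Acat1* for NR in control females (0.30, adjusted p = 0.665), *Acat1* for NR-treated Alport minus vehicle-treated control in females (-0.46, adjusted p = 0.155), *Bdh1* for female minus male (-0.52, adjusted p = 0.301) and *Oxct1* for female minus male (-0.32, adjusted p = 0.455). In 1 fit of all 32 mice a call was made for *Bdh1* for NR-treated Alport minus vehicle-treated control in males (-1.12, adjusted p = 0.00848). In 1 fit of all 32 mice the sign reversed for *Bdh1* for NR by genotype in males (0.0014, adjusted p = 1). With RLE scaling the number of genes called moved by over 1.5 times to 52 for sex by genotype. With RLE scaling the sign reversed for *Oxct1* for NR by genotype in males (-0.017, adjusted p = 0.995). Without the low-count filter the number of genes called moved by over 1.5 times to 116 for NR in Alport females and 3 for NR by genotype in females. Without the low-count filter a call was made for *Bdh1* for Alport minus control in females (-0.63, adjusted p = 0.0455).

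The labels give mice of different groups the same replicate number and no shared origin. The r of deviations from group means was over 0.1 in 5 of 36 pairs of the same number, and in no comparison in all 4 pairs, so no pairing was used. Over the 9 pairwise comparisons, with a mouse counted once in each, the best match had the same number in 18 of 72 cases, the 1 in 4 of chance. In each of the 3 comparisons among vehicle-treated groups it did so for 5 of 8 mice, with all 4 r above 0, which is a hint from the data and not the design. With the replicate block the number of genes called moved by over 1.5 times to 309 for NR in control males, 371 for NR in control females, 2292 for NR-treated Alport minus vehicle-treated control in females and 61 for NR by sex in controls. With the replicate block the call was lost for *Acat1* for NR in control females (0.29, adjusted p = 0.0776) and *Acat1* for NR-treated Alport minus vehicle-treated control in females (-0.46, adjusted p = 0.0502). With the replicate block a call was made for *Bdh1* for Alport minus control in females (-0.66, adjusted p = 0.0468). With the replicate block the sign reversed for *Acat1* for NR in Alport males (-0.072, adjusted p = 0.986) and *Oxct1* for NR by genotype in males (-0.054, adjusted p = 0.982).

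Leaving out 1 mouse gave these ranges of log2 fold changes: for NR in Alport males *Acat1* -0.23 to 0.27, for NR in control males *Bdh1* -0.72 to -0.28 and *Oxct1* -0.69 to -0.42, for NR-treated Alport minus vehicle-treated control in males *Bdh1* -1.45 to -0.78, *Oxct1* -1.86 to -1.15 and *Acat1* -1.46 to -0.96, for Alport minus control in females *Bdh1* -0.94 to -0.51, for NR in control females *Oxct1* -0.13 to 0.0040 and *Acat1* 0.26 to 0.32, for NR-treated Alport minus vehicle-treated control in females *Bdh1* -1.57 to -0.98 and *Acat1* -0.51 to -0.35, for female minus male *Bdh1* -0.60 to -0.36 and *Oxct1* -0.38 to -0.25, for sex by genotype *Bdh1* -0.41 to 0.056 and *Oxct1* -0.16 to 0.18, for NR by genotype in males *Bdh1* -0.38 to 0.25 and *Oxct1* -0.38 to 0.29, for NR by sex in Alport mice *Bdh1* -0.48 to 0.26 and *Oxct1* -0.087 to 0.60, for NR by sex in controls *Acat1* 0.49 to 0.67. The number of genes called ranged over 0 to 380 for NR in Alport males, 74 to 1886 for NR in control males, 1446 to 3970 for NR-treated Alport minus vehicle-treated control in males, 9 to 166 for NR in Alport females, 395 to 809 for NR in control females, 2288 to 4800 for NR-treated Alport minus vehicle-treated control in females, 23 to 93 for sex by genotype, 0 to 782 for NR by genotype in males, 0 to 45 for NR by genotype in females and 22 to 677 for NR by sex in controls. Of 456 fits of members that left out a mouse, 389 kept direction and side. Of 234 calls of the other pathway genes none reversed, and 234 were kept with DESeq2, 229 with limma-voom, 180 in 1 fit of all 32 mice, 232 with RLE scaling, 226 without the low-count filter and 209 with the replicate block. In 1872 fits of those genes that left out a mouse, 252 lost the call. The lowest count of any member in any mouse was 653, against a filter minimum of 10.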
